A study of Mus musculus with 4 samples.

Results

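Atrial or atrioventricular-like cardiomyocytes, called atrial/AV-like cells below, were 77 of the 61172 cell barcodes deposited for mouse embryonic heart ventricles. They were chosen by their own transcripts, counted as unique molecular identifiers (UMIs, 1 per captured RNA molecule). Of all barcodes, 42246 had at least 1000 detected genes and under 10% mitochondrial UMIs, and 11852 of those were cardiomyocytes by the rule that Tnnt2, Tnni1, Tnnc1, Actc1, Myl3, Myl4, Myl7 and Myh7 together took at least 4% of their UMIs. An atrial/AV-like cell also needed at least 3 UMIs of Sln, Shox2 and Cacna2d2 in sum, at least 2 of those 3 genes detected, and at least 1 UMI of Myh6. The other 11775 cardiomyocytes served as the comparison. Those 12 genes are therefore described without a test, and tests were run on genes outside the rule. The markers were picked from earlier groupings of these same cells, so the direction of genes that vary with them is not independent evidence for the label.

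The cells came from embryos collected at E12.5 after tamoxifen at E9.5. Control embryos (het) were Gata4fl/+;Rosa26mTmG/+;Cdh5(Pac)-CreER+ and knockout embryos (KO) were Gata4fl/fl with the same reporter and the same Cre, and each group had 2 libraries of dissociated ventricular cells. All 4 libraries thus carried Cre, reporter and tamoxifen, and the het embryos also had 1 floxed Gata4 allele. The Cdh5 promoter drives Cre in endothelium, so cardiomyocytes are not the cells in which the deletion was aimed. Nothing in the labels tells if embryos were pooled for a library, so p-values refer only to these libraries, whose spread may be technical. The edgeR test also shares its estimate of spread over genes. Very small p-values therefore do not come from the spread of a gene between 4 libraries alone.

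The embryonic heart tube divides into chambers with different myocardium. Atrial myocytes express Sln, which inhibits the sarcoplasmic calcium pump in atria, and the nuclear receptors Nr2f1 and Nr2f2, of which Nr2f2 is known to uphold atrial identity; ventricular myocytes express Myl2, Irx4 and Hey2. The myocardium of the atrioventricular canal lies between the chambers, secretes Bmp2, which acts on the overlying endocardium, and is held in a slowly conducting, non-chamber state by the T-box repressors Tbx2 and Tbx3. Shox2 marks the sinus venosus and the forming sinus node, the pacemaker at the venous pole, where Hcn4 carries the pacemaker current.

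The libraries differed in yield. Atrial/AV-like cells numbered 13 in het 1, 38 in het 2, 19 in KO 1 and 7 in KO 2, and values given in fours keep this order throughout. Their summed UMIs were 156240, 1107996, 295697 and 231577. Their median depths of 9425, 21334.5, 12410 and 36217 UMIs per cell were each above those of the other cardiomyocytes, at 4947, 10043.5, 5488 and 8674. Among pairs of libraries, 23 to 103 barcodes were shared, and 1 atrial/AV-like barcode of 1 library of the pair het 1 and KO 1 also occurred in the other.

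RNA quality moved with the comparison. Mitochondrial transcripts made up a median 4.87, 4.49, 6.66 and 4.12% of UMIs in atrial/AV-like cells, against 0.853, 0.635, 0.473 and 0.179% in the other cardiomyocytes. The nuclear RNA Malat1 stood at a median 1.60, 1.11, 1.29 and 0.937% of UMIs against 0.107, 0.0886, 0.0749 and 0.0249%. At least 2% mitochondrial UMIs were found in 69.2, 94.7, 94.7 and 57.1% of atrial/AV-like cells and in 37.6, 37.3, 14.8 and 14.5% of other cardiomyocytes. Comparisons with other cardiomyocytes are therefore given also among barcodes with at least 2% mitochondrial UMIs on both sides, called the mitochondria-limited comparison. In it the median mitochondrial share of the other cardiomyocytes was 4.69, 4.48, 5.26 and 4.71%, and their median Malat1 share was 0.581, 0.941, 0.910 and 0.847%. Their median depths were 4333, 29734, 14756.5 and 33811 UMIs against 11890, 21765.5, 12449.5 and 48770 in atrial/AV-like cells under the limit, so that depth lay the other way in het 2 and KO 1.

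**Figure D1:**
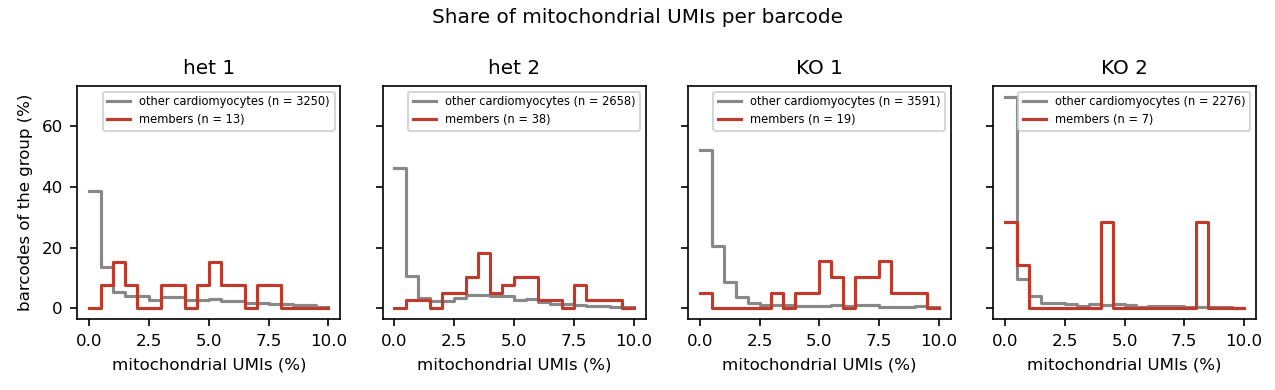
Share of barcodes (y axis, % of the group) by mitochondrial UMIs (x axis, % of the barcode's UMIs, in bins of 0.5) in each library, for atrial/AV-like cells (red) and other cardiomyocytes (grey). The grey distributions peak below 1% in all 4 libraries, and the red ones lie mostly above 2%.

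Sln transcripts were concentrated in these cells as the rule required. Sln stood at 269, 681, 416 and 453 CPM (UMIs of the gene per 1000000 UMIs of the group), and at 1.49 to 3.67 CPM in the other cardiomyocytes. Cacna2d2, an auxiliary calcium channel subunit, was even across libraries at 429, 368, 436 and 289 CPM. Shox2 was uneven, at 538, 42.4, 223 and 34.6 CPM. Myh6, the myosin heavy chain of atrial muscle at this age, stood at 11620, 11090, 7146 and 8503 CPM against 560 to 764 CPM in the other cardiomyocytes, although the rule asked for only 1 UMI.

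Cells differed in which of the 3 marker genes they held. Sln with Cacna2d2 and no Shox2 was the commonest pair in het 2 (27 of 38 cells) and KO 1 (12 of 19), whereas Shox2 with Cacna2d2 and no Sln was the commonest in het 1 (7 of 13). In KO 2 each of these pairs held 3 of 7 cells. All 3 genes were detected in 2, 6, 6 and 0 cells. At the edge of the rule, 2, 0, 1 and 2 cells had exactly 3 marker UMIs, and 3, 2, 1 and 0 other cardiomyocytes had 2 UMIs spread over 2 of the genes. A further 22, 56, 51 and 20 other cardiomyocytes had at least 3 UMIs of 1 marker alone, and 12, 9, 12 and 1 barcodes met the marker rule with 3 to 4% of their UMIs on the gate genes. Another 28, 10, 15 and 0 barcodes met it with under 3%. Of the atrial/AV-like cells themselves, 10, 12, 13 and 2 had 4 to 5%. How membership and the shares given below would move with another gate cut was not tested.

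Free RNA was checked in cell types that should lack these genes. None of 1067, 1142, 1103 and 591 endothelial-type barcodes met the marker rule, which allows a share of up to 0.281, 0.263, 0.272 and 0.508% (3 counts of the total, counting error only), at median depths of 7634, 20602, 15508 and 27533 UMIs. Sln stood there at 0 to 0.315 CPM. Scrublet, a doublet caller, marked none of the 77 cells, but for het 1 and KO 2 it found no usable threshold by itself. Transcripts of other cell types (at least 3 UMIs over at least 2 markers of 1 type) were seen in 10 of 13, 13 of 38, 7 of 19 and 3 of 7 atrial/AV-like cells and in 27.8, 28.4, 13.9 and 12.1% of other cardiomyocytes.

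Beyond the rule genes, 1302 genes were higher (9.95%) and 1807 lower (13.8%) in atrial/AV-like cells than in other cardiomyocytes of the same library, of 13083 tested (23.8%; edgeR quasi-likelihood test on summed UMIs with library as a block, Benjamini-Hochberg adjusted p under 0.05). In the mitochondria-limited comparison 651 were higher (5.37%) and 780 lower (6.44%) of 12113 (11.8%). With other cardiomyocytes matched to the atrial/AV-like cells by UMIs, 395 (9.84%) were higher and 330 (8.22%) lower of 4015 (18.1%), and with both the limit and the match 211 (5.31%) and 147 (3.7%) of 3977 (9%). Without KO 1 the first counts were 866 and 1190. Of the genes called under the limit, 598 of the higher and 647 of the lower were also called without the limit, and no gene was called in opposite directions. Values below are log2 differences ± SE over 4 libraries, first against all other cardiomyocytes and then under the limit.

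Genes of the atrial list were mostly higher: 14 of 17 tested rose and 2 fell, with 13 and 2 under the limit, and a median log2 difference of 2.86 (2.65 under the limit) against -0.05 (-0.07) over all genes tested. Nr2f1, on chromosome 13 (GRCm38, 78188973 to 78199757, minus strand), stood at 243, 335, 247 and 159.8 CPM and at 0.819 to 1.89 CPM in the other cardiomyocytes. All 4 libraries lay far above the range of the comparison cells. The difference was 7.09 ± 0.23 (edgeR adjusted p = 1.7e-203) and 7.14 ± 0.23 (adjusted p = 9.25e-25). Nr2f2, its close relative, stood at 160.0, 151, 67.6 and 73.4 CPM against 0.759 to 3.49 CPM, a difference of 5.48 ± 0.27 and 5.55 ± 0.25.

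Vsnl1, a neuronal calcium sensor used as a label marker but not by the rule, stood at 211, 154, 94.7 and 69.1 CPM against 0.337 to 0.951 CPM (7.36 ± 0.29 and 8.03 ± 0.32). Both het libraries were above both KO libraries, a difference treated with the genotype below. Stard10, a lipid transfer protein, stood at 186, 234, 115 and 164 CPM against 6.55 to 9.23 CPM (4.13 ± 0.21 and 4.65 ± 0.21). Tbx5, the T-box activator of the atria and left ventricle, stood at 294, 172, 189 and 186 CPM against 18.0 to 27.7 CPM (2.86 ± 0.19 and 2.80 ± 0.18).

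The potassium channel genes Kcna5 and Kcnj5 belonged to the same group. Kcna5, which carries the atrial ultrarapid current, was present at 19.2, 17.2, 13.5 and 56.1 CPM against 0 to 0.373 CPM (6.68 ± 0.56 and 6.65 ± 0.59), from 3, 19, 4 and 13 UMIs. Kcnj5, a subunit of the acetylcholine-gated channel, stood at 115, 104, 101.5 and 51.8 CPM against 4.03 to 7.50 CPM (3.53 ± 0.25 and 3.06 ± 0.22). Mybphl, a myosin-binding protein of atrial muscle, was even across libraries, at 70.4, 71.3, 77.8 and 69.1 CPM against 3.67 to 4.74 CPM (3.74 ± 0.28 and 4.29 ± 0.31).

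The 2 atrial list members that fell, Nppa and Bmp10, are also trabecular genes at this stage. Nppa, the natriuretic peptide, varied widely between libraries, at 845, 1194, 142 and 3800 CPM against 1109 to 1544 CPM, so that the groups overlapped. Its difference was -0.79 ± 0.19 (edgeR adjusted p = 0.000382) and -1.22 ± 0.36 (adjusted p = 0.0179), and matching by UMIs turned it positive, at 1.19 (adjusted p = 0.368). Without KO 1 it was -0.03 (adjusted p = 0.959), and without het 1 it was -0.66 (adjusted p = 0.0567). A single KO 2 cell held 791 of the 880 Nppa UMIs of its library. Bmp10, a trabecular growth factor, was detected in 1 of 77 cells, and without het 2 its fall did not pass (-1.12, adjusted p = 0.207).

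Of the 8 genes with the largest positive differences, Nr2f1, Vsnl1 and Kcna5 are given above. Shisa6, an AMPA receptor auxiliary protein, stood at 38.4, 10.8, 37.2 and 8.64 CPM against 0 to 0.0803 CPM (8.08 ± 0.67 and 7.58 ± 0.64). Acvr1c, a type I receptor for nodal and activin ligands, stood at 38.4, 79.4, 64.2 and 60.5 CPM against 0.407 to 1.15 CPM (6.13 ± 0.38 and 5.84 ± 0.36). Fgf12, which binds sodium channels, stood at 57.6, 60.5, 6.76 and 73.4 CPM (6.25 ± 0.45 and 7.04 ± 0.55), with KO 1 well below the others. Fcmr, an Fc receptor for IgM, and Trabd2b, a membrane protease acting on Wnt, had means of 34.2 ± 7.92 and 35.9 ± 14.6 CPM (SD, n = 4) against 0.291 ± 0.102 and 0.436 ± 0.159 CPM. Their differences were 6.49 ± 0.51 and 5.89 ± 0.49, and 6.63 ± 0.49 and 5.40 ± 0.44 under the limit.

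**Figure D2:**
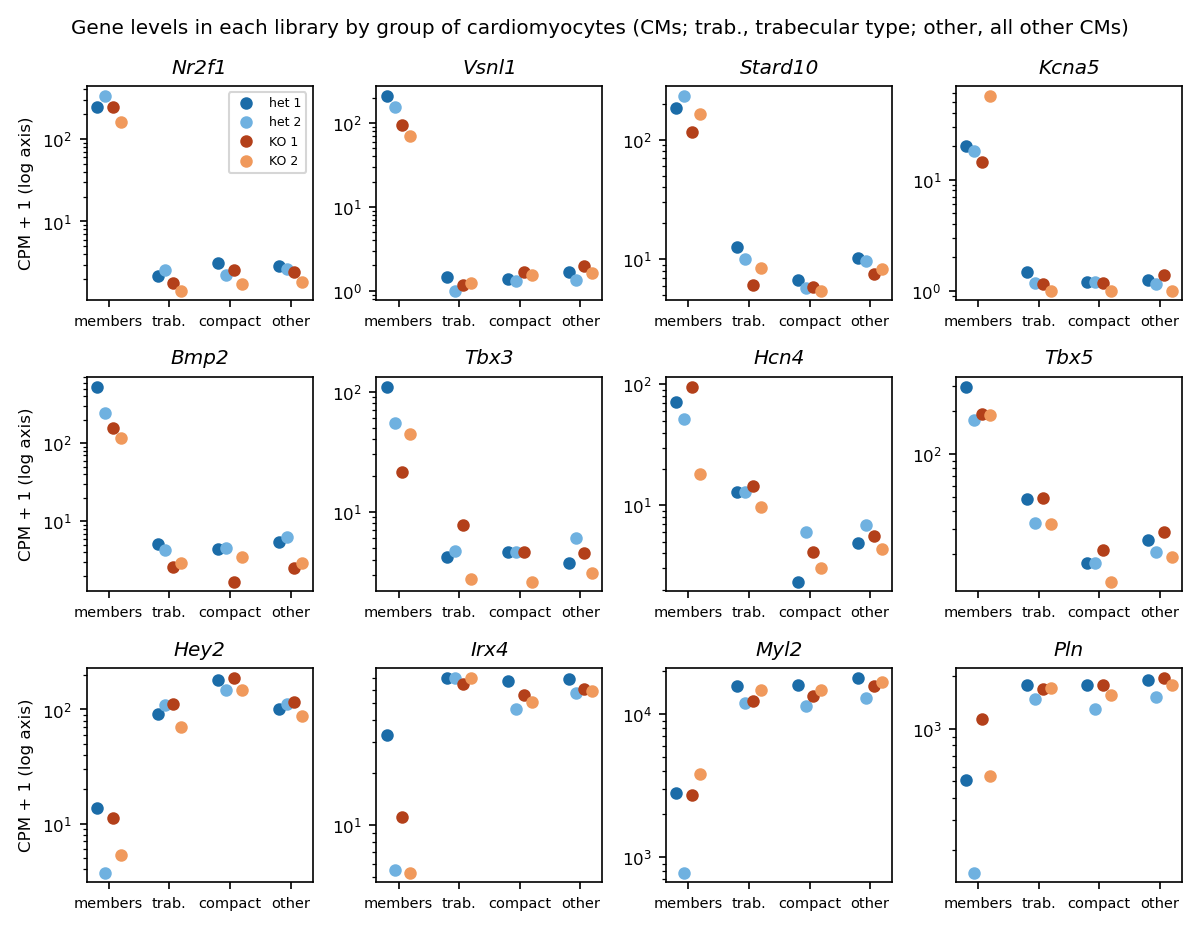
CPM + 1 on a log axis for 12 genes in each library (colours, 1 point per library) in atrial/AV-like cells (members), trabecular-type cells, compact-type cells and all other cardiomyocytes, which include the previous 2 types. For Nr2f1, Vsnl1, Stard10, Kcna5, Bmp2, Tbx3, Hcn4 and Tbx5 the 4 member points lie above every other point, and for Hey2, Irx4, Myl2 and Pln below. Compact-type cells were chosen by Hey2 and Mycn, so their Hey2 level follows from that choice.

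Atrioventricular canal genes were higher. Of 8 tested, 7 rose and none fell, with the same counts under the limit, where the median difference was 3.01. Over all genes 9.95% rose and 13.8% fell, and under the limit 5.37% and 6.44%, with a median there of -0.07. Bmp2, the canal's inductive ligand, stood at 531, 244, 156 and 117 CPM against 1.49 to 5.35 CPM (5.86 ± 0.22, edgeR adjusted p = 1.58e-154, and 5.38 ± 0.21, adjusted p = 6.32e-22). Tbx3 stood at 109, 54.2, 20.3 and 43.2 CPM against 2.09 to 5.07 CPM (3.54 ± 0.34 and 3.12 ± 0.35). Tbx2, named here outside the naming rule, differed by 3.96 ± 0.40 and 3.97 ± 0.37 and was detected in 34 of 77 cells.

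Rspo3 and Bmp4 were less even. Rspo3, a Wnt pathway amplifier, stood at 70.4, 159.7, 284 and 4.32 CPM against 5.30 to 20.2 CPM, so that KO 2, with 1 UMI, lay below its own comparison cells (3.25 ± 0.24 and 2.82 ± 0.33). Bmp4 stood at 275, 20.8, 105 and 8.64 CPM against 3.50 to 5.14 CPM (3.55 ± 0.30 and 3.16 ± 0.38), from 43, 23, 31 and 2 UMIs. Single cells held 60 of the 84 Rspo3 UMIs of KO 1 and 28 of the 43 Bmp4 UMIs of het 1. Both genes were also on the outflow tract list, and they were its only members past the threshold of 6 tested; Sema3c, which marks outflow myocardium, stood at 0, 11.7, 64.2 and 8.64 CPM against 5.49 to 10.2 CPM.

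The wider BMP list moved mostly upward. Of 20 genes tested, 12 rose and 2 (Bmpr1b and Bmp10) fell, and under the limit 9 of 19 rose and the same 2 fell. The shares over all genes were 9.95% and 13.8%, and 5.37% and 6.44% under the limit. Targets and inhibitors were among the risers. Id2, a direct target gene that blocks basic helix-loop-helix factors, stood at 320, 229, 429.5 and 255 CPM against 64.0 to 84.3 CPM (1.67 ± 0.18 and 1.67 ± 0.17). Bambi, a decoy receptor, stood at 301, 120, 288 and 104 CPM against 52.5 to 66.5 CPM (1.27 ± 0.19 and 0.91 ± 0.19). Id3, Id4, Smad6 and Smad7 rose in both comparisons too, whereas the receptor genes Bmpr1a, Bmpr2 and Acvr1 passed the threshold only without the limit.

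Genes of the sinus list overlapped with these. Of 10 tested, 8 rose and 1 (Tbx18) fell, and under the limit 8 of 9 rose and Tbx18 fell. Across all genes 9.95% rose and 13.8% fell, and 5.37% and 6.44% under the limit. Hcn4 stood at 70.4, 50.5, 94.7 and 17.3 CPM against 3.31 to 5.93 CPM (3.25 ± 0.31 and 2.52 ± 0.27). Cpne5, a calcium-dependent membrane-binding protein, stood at 179, 316, 206 and 138 CPM against 2.82 to 10.9 CPM (4.83 ± 0.22 and 4.66 ± 0.27). Cacna1d, the pacemaker L-type channel, and Rgs6, which shortens acetylcholine signalling, had means of 74.8 ± 42.0 and 84.3 ± 20.4 CPM (SD, n = 4) against 3.796 ± 1.33 and 8.58 ± 1.62 CPM. Cacna1d differed by 3.79 ± 0.29 and 3.18 ± 0.28, and Rgs6 by 2.996 ± 0.24 and 2.87 ± 0.22. Isl1, a defining factor of the sinus node, was at 1 UMI in 1 of 77 cells, and Tbx18, the factor of the sinus venosus, differed by -1.40 ± 0.35 and -1.59 ± 0.32.

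Ventricular genes were lower: 11 of 12 fell and none rose, and 10 fell under the limit, with medians of -2.13 and -1.81. Among all genes tested 13.8% fell, and 6.44% under the limit. Hey2, the Notch-responsive repressor of the compact ventricle, was found at 12.8, 2.71, 10.2 and 4.32 CPM, from 9 UMIs in all, against 86.6 to 115 CPM (-4.62 ± 0.34, edgeR adjusted p = 7.58e-39, and -4.72 ± 0.32, adjusted p = 2.6e-14). Irx4, the ventricular homeobox factor, stood at 32.0, 4.51, 10.2 and 4.32 CPM against 56.4 to 68.2 CPM (-3.10 ± 0.33 and -3.26 ± 0.35). Neither gene overlapped between the groups.

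Myl2 and Pln fell from higher levels. Myl2, the ventricular regulatory light chain, stood at 2784, 775, 2716 and 3796 CPM against 12940 to 17990 CPM (-3.21 ± 0.20 and -2.72 ± 0.23). Pln, which inhibits the sarcoplasmic calcium pump in ventricles, stood at 506, 148, 1136 and 535 CPM against 1517 to 1956 CPM (-2.28 ± 0.18 and -1.92 ± 0.24). In KO 2 a single cell held 860 of the 879 Myl2 UMIs and 120 of the 124 Pln UMIs. Cited1, a transcriptional co-regulator, stood at 134, 108, 20.3 and 596 CPM against 436 to 703 CPM and overlapped between the groups; its difference of -1.70 ± 0.31 under the limit was -1.12 ± 0.72 (adjusted p = 0.356) when the other cells were also matched by UMIs.

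The remaining leading falls were muscle genes and others outside the ventricular list. Mb, myoglobin, stood at 76.8, 45.1, 54.1 and 17.3 CPM against 632 to 761 CPM (-4.25 ± 0.22 and -4.11 ± 0.22). Tnni2, a fast-muscle troponin I, stood at 25.6, 4.51, 3.38 and 8.64 CPM against 83.2 to 108 CPM (-4.09 ± 0.32 and -4.01 ± 0.35). Upp1, a uridine phosphorylase, Pdlim1, a cytoskeletal adaptor, and Gap43, a growth-cone protein, differed by -3.90 ± 0.40, -3.35 ± 0.28 and -3.11 ± 0.45. Under the limit those values were -3.799, -3.19 and -2.75.

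The start-proximal sequences of a gene that rose and a gene that fell are shown because both hold the T-box core GGTGTG (or its reverse complement CACACC), which the T-box factors named above are known to bind. They are the RefSeq windows (GRCm38.p6) of 250 bases before the transcription start, printed 5′ to 3′ on the gene's strand with the core in capitals. Stard10 lies on the plus strand of chromosome 7 at chr7:101316836-101317085, with the core starting 215 bases before the start, and Hey2 on the minus strand at chr10:30842784-30843033, with the core 129 bases before it.
Stard10: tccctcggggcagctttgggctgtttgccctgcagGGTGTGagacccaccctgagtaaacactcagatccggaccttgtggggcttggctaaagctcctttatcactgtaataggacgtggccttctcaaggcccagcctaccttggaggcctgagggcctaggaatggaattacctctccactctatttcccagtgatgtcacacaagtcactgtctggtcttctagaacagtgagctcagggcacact
Hey2: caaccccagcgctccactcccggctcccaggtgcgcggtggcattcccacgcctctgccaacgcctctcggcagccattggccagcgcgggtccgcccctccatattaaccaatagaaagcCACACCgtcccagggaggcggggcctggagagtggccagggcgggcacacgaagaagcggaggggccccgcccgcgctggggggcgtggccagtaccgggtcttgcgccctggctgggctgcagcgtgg

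Searched on both strands, the core was in 16.3% of all 32851 windows. Of 24 named genes looked for, 17 had a window, and 4 of their 30 windows held the core (those of Stard10, Hey2, Vsnl1 and Upp1, the last 2 in 1 of several windows). A match is a description of these letters and not of binding.

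Cardiac transcription factors moved both up and down. Of 33 tested, 12 rose and 9 fell, and under the limit 13 rose and 8 fell of 32. Set beside these counts, 9.95% of all genes rose and 13.8% fell, and 5.37% and 6.44% under the limit. Besides Nr2f1, Nr2f2, Tbx2, Tbx3 and Tbx5, the risers in both comparisons included Gata5, Gata6, Hey1, Mef2a, Tbx20 and Ankrd1. The fallers in both were Hey2, Irx1, Irx2, Irx3, Irx4, Hand1, Mycn and Tbx18. Tbx20, a T-box factor of all myocardium, stood at 506, 408, 443 and 341 CPM against 134 to 189 CPM (0.99 ± 0.17 and 0.67 ± 0.16).

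Fewer channel and calcium-handling genes passed the threshold under the mitochondrial limit, as did fewer of all genes tested (11.8% against 23.8%). Of 20 channel and connexin genes, 12 rose and 1 (Gja1) fell, against 7 and 2 under the limit. Of 17 calcium-handling genes, 8 rose and 5 fell, and under the limit only Casq1 and Atp2a2 rose and only Pln and Itpr2 fell. Atp2a2, the sarcoplasmic calcium pump, stood at 2375, 2144, 1995 and 2215 CPM against 493 to 895 CPM (1.48 ± 0.17), and the difference shrank to 0.72 ± 0.16 under the limit. Slc8a1, the sodium-calcium exchanger, rose by 1.09 ± 0.17 and did not pass under the limit, at 0.29 ± 0.15 (edgeR adjusted p = 0.246). Casq1, a calcium-binding protein of the sarcoplasmic store, held at 2.65 ± 0.19 and 2.08 ± 0.20.

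Sarcomere genes outside the rule rose and fell in similar numbers, 11 and 7 of 31, and 9 and 9 of 30 under the limit. All genes tested rose in 9.95% and fell in 13.8%, and in 5.37% and 6.44% under the limit. Tnnt1, the slow-skeletal troponin T, stood at 198, 607, 595 and 285 CPM against 1454 to 2094 CPM (-2.44 ± 0.18 and -2.16 ± 0.21).

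Proliferation genes were lower in atrial/AV-like cells as a summed population. All 20 G1/S genes fell against other cardiomyocytes and 13 of 20 under the limit, and 16 of 20 G2/M genes fell, 7 under the limit; none rose. Over all genes tested 13.8% fell, and 6.44% under the limit. With the limit and the match by UMIs together, 2 of 10 G1/S genes and 0 of 18 G2/M genes were called, where 9% of all genes were. The G2/M list summed to 512, 2095, 406 and 3519 CPM against 2449, 2739, 2546 and 2379 CPM, so that KO 2 lay above its comparison cells. Rrm2, the ribonucleotide reductase subunit, stood at 19.2, 32.5, 3.38 and 159.8 CPM against 186 to 219.5 CPM (-2.50 ± 0.22 and -1.85 ± 0.30). Top2a, a mitotic topoisomerase, stood at 64.0, 162, 47.4 and 410.2 CPM against 235 to 319 CPM, with KO 2 again above (-1.24 ± 0.19 and -1.13 ± 0.28); DESeq2 did not call it (-1.44, adjusted p = 0.123). Against trabecular-type cells under the limit, 8 of 20 G1/S genes fell and no G2/M gene passed the threshold, where 4.63% of all genes fell.

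Energy metabolism genes were lower as well. Of 30 oxidative phosphorylation genes encoded in the nucleus, 22 fell and 1, Cox6a2, rose, with 16 and 1 under the limit. Of 26 glycolysis and hypoxia genes, 15 fell and 1 rose, with 14 and 0 under the limit. Of all genes tested 13.8% fell, and 6.44% under the limit. With the limit and the match by UMIs together, 6 of 29 oxidative phosphorylation genes and 10 of 20 glycolysis and hypoxia genes fell. In that fit 1 gene of each list rose, and 3.7% of all genes tested fell. Ldha, lactate dehydrogenase, stood at 698, 819, 1505 and 453 CPM against 1815 to 2280 CPM (-1.68 ± 0.18 and -1.38 ± 0.20). Cyc1, of respiratory complex III, stood at 448, 474, 429.5 and 557 CPM against 773 to 836 CPM (-1.09 ± 0.17 and -0.75 ± 0.15). The medians of these 2 lists under the limit were -0.50 and -0.69.

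**Figure D3:**
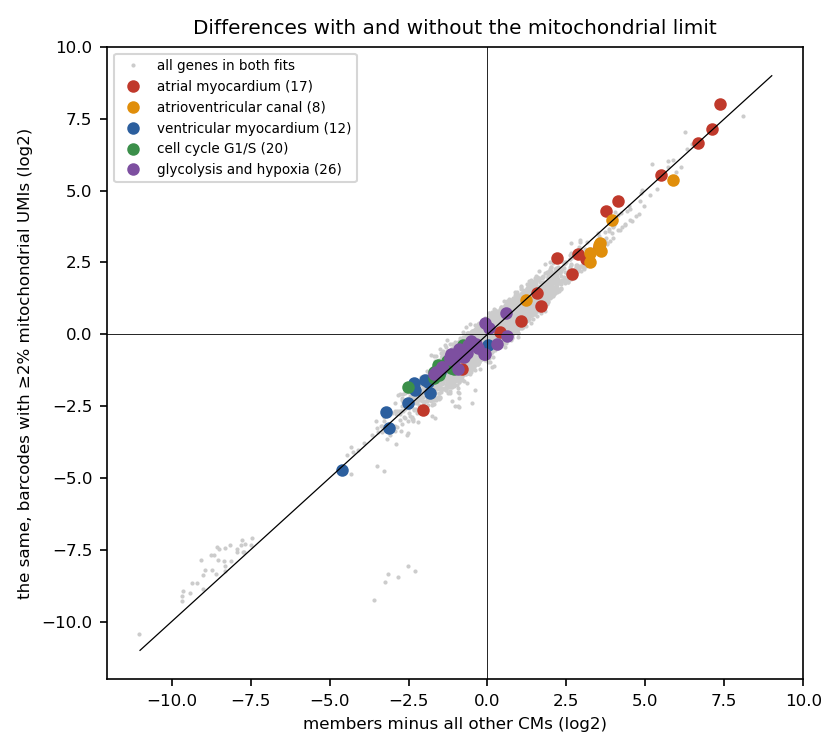
Log2 difference between atrial/AV-like cells and other cardiomyocytes per gene (grey, 1 point per gene in both fits), without (x axis) and with (y axis) the limit of at least 2% mitochondrial UMIs; coloured points are 5 gene lists with the number of members plotted, and the diagonal marks equality. Atrial and canal genes lie far up the diagonal and ventricular genes far down it, while cell cycle and glycolysis genes lie between -3 and 1.

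No list of the endothelial, cushion mesenchyme or macrophage markers had a higher sum than other cardiomyocytes in all 4 libraries. The macrophage list summed to 44.8, 17.2, 33.8 and 229 CPM against 25.5 to 86.4 CPM in other cardiomyocytes, and 1 KO 2 cell held 50 of that library's 51 UMIs of Lyz2. The cushion mesenchyme list summed to 819, 188, 643 and 151 CPM against 232 to 429 CPM, with none of 12 genes higher and 3 lower, and 6 of 11 lower under the limit. For comparison, 13.8% of all genes tested were lower, and 6.44% under the limit. The endothelial list summed to 37.2 to 76.8 CPM against 22.5 to 94.99 CPM, with Plvap and Cldn5 at 0 in atrial/AV-like cells, and only Kdr rose (2.94 ± 0.46 and 3.28 ± 0.50), from 2, 28, 3 and 5 UMIs. Of 3 smooth muscle genes tested, Tagln rose by 0.56 ± 0.18 (0.76 ± 0.19 under the limit) and Acta2 differed by -0.82 ± 0.17 (-0.61 ± 0.17 under the limit) and fell in both. The erythroid list summed to 6816, 9341, 3947 and 1490 CPM against 15740, 5259, 8356 and 2052 CPM, with 6 of 9 genes lower and 3 of 8 under the limit. Krt19 was the 1 epicardial gene called of 4 tested, at -2.81 ± 0.27 and -2.67 ± 0.27. The part of these cells in the differences above was not tested, except that with barcodes carrying transcripts of other types left out, 1197 genes were higher and 1541 lower.

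The reporter transcripts were measured as well. dsRed, which marks the unrecombined reporter, stood at 525, 442, 507 and 354 CPM against 199.5 to 343 CPM in other cardiomyocytes. It rose by 0.54 ± 0.17, which missed the threshold under the limit (0.41 ± 0.16, edgeR adjusted p = 0.0914). It also missed it when het 1 (0.40, adjusted p = 0.183) or KO 1 (0.41, adjusted p = 0.181) was left out. EGFP, which marks recombined cells, stood at 83.2, 58.7, 101.5 and 21.6 CPM against 31.4 to 69.2 CPM in other cardiomyocytes and 1700 to 3232 CPM in endothelial-type barcodes. The EGFP difference from other cardiomyocytes was -0.12 ± 0.22, and -0.28 ± 0.20 under the limit, and passed the threshold in neither.

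Trabecular-type and compact-type cells were set beside the atrial/AV-like cells as the nearest myocardium. Trabecular-type cells (1071) had at least 3 UMIs over at least 2 of Bmp10, Irx3, Gja5 and Nppb, and compact-type cells (1721) had both Hey2 and Mycn. Against trabecular-type cells 629 genes (5.87%) were higher and 657 (6.13%) lower of 10712 (12%), and 518 (5.1%) and 470 (4.63%) of 10147 (9.74%) under the limit. Without het 2 the counts without the limit were 305 and 262. Against compact-type cells the counts were 1099 (10.2%) and 1202 (11.1%) of 10811 (21.3%), and 741 (7.61%) and 645 (6.63%) of 9733 (14.2%) under the limit. The lower count was 720 without het 1 and 748 without KO 1. The atrial list rose in 12 of 15 genes against trabecular-type cells under the limit, the canal list in 7 of 7, and the ventricular list fell in 8 of 10.

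For some genes the log2 difference from trabecular-type cells was smaller than that from compact-type cells. Tbx5 stood at 31.2 to 48.2 CPM in trabecular-type cells and differed by 2.27 ± 0.15 under the limit, against 3.54 ± 0.21 from compact-type cells. Hcn4 stood at 8.71 to 13.6 CPM and differed by 1.94 ± 0.26 and 3.39 ± 0.33. Slc8a1 differed by 0.06 ± 0.12 from trabecular-type and by 0.46 ± 0.12 from compact-type cells. Nr2f1 differed by 7.60 ± 0.22 from trabecular-type and by 7.37 ± 0.25 from compact-type cells. The differences between these differences were not tested.

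The 77 cells were not uniform. For description only, they were split by cuts chosen after the values were seen: Myl2 at 0.2% of UMIs or more (17 cells), then Shox2 at 5 UMIs or more (9), then Bmp2 at 3 UMIs or more (16), with 35 remaining. Near the cuts, 3 cells had Myl2 at 0.1% to under 0.2% of UMIs and 5 at 0.2% to under 0.4%, 10 had 1 or 2 UMIs of Bmp2 and 5 had 3 or 4, and 1 had 3 or 4 UMIs of Shox2 and 2 had 5 or 6. The subsets are ranges and not cell types.

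The 35 remaining cells, 22 of them from het 2, carried the atrial genes and were low in Bmp2 by the cut. Pooled over these cells, Nr2f1 stood at 376 CPM and Stard10 at 302 CPM. Of the canal genes outside the cut, Tbx3 was detected in 1 cell of 35 and Tbx2 in 15, at 37.9 CPM, and Hcn4 was detected in 14. Nppa was uneven, at 1013 CPM pooled against a median of 112 CPM per cell, and 752 of its 856 UMIs came from het 2. Stard10 was detected in 33 of 35 and Myh6 stood at 11921 CPM.

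The 16 cells with Bmp2 came from all 4 libraries (2, 8, 5 and 1) and carried some of the other canal genes. Rspo3 was detected in 14, Tbx2 in 11 and Tbx3 in 9 of them, at 332, 70.2 and 140.4 CPM pooled. The median of Tbx3 per cell was 18.3 CPM, against 96.2 CPM in the cells of the Shox2 cut. Bmp4, also on the canal list, was detected in 4 of the 16 and Hcn4 in 11. Cpne5 was detected in all 16, and Myh6 stood at 13491 CPM. Sln and Cacna2d2 were also in all 16 and Shox2 in 2, which follows in part from the choice of cells. By the rule a cell without Shox2 had to hold both Sln and Cacna2d2, and cells with 5 or more Shox2 UMIs were set apart first. Nr2f1, at 189.98 CPM, was detected in 13.

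The 9 cells with Shox2 came from het 1, het 2 and KO 1 (2, 3 and 4) and carried another set. Bmp4 was detected in all 9 at 468 CPM pooled against 14.5 CPM in the Bmp2 cells. Smoc2, a matricellular protein of the sinus node, was in 5 at 212 CPM against 2.1, and Hcn4 in 7 at 264 CPM against 53.7. Medians per cell of Bmp4, Smoc2 and Hcn4 were 181, 113 and 158 CPM, against 0, 0 and 50.3 CPM in the Bmp2 cells. A single het 1 cell held 28 of the 62 Bmp4 UMIs, and a single het 2 cell held 17 of the 28 Smoc2 UMIs. Vsnl1 was in all 9 at 491 CPM, Nr2f1 in all 9 at 536 CPM and Tbx3 in 6. Nppa was at 22.7 CPM, Top2a at 7.6 CPM, and Isl1 had no UMI.

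The 17 cells with Myl2 were set apart by ventricular genes. They made up 7 of the 13 cells of het 1 and 5, 4 and 1 in the other libraries. Myl2, which made the cut, stood at 7989.7 CPM pooled and at a median of 6931 CPM per cell. Pln stood at 1636 CPM pooled and a median of 886 CPM, and Nppa at 3887 CPM and a median of 225 CPM. The single KO 2 cell among them held 791 of the 1281 Nppa UMIs, 860 of the 2633 Myl2 UMIs and 120 of the 539 Pln UMIs, and 1 KO 1 cell held another 208 of the Pln UMIs. Pooled Myh6 was at 2382 CPM, the lowest of the 4 subsets, and pooled Sln at 155 CPM. Irx4 was detected in 8 of 17 against 1 or 0 in each other subset. Nr2f1 was detected in 9 of 17 and Stard10 in 7.

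**Figure D4:**
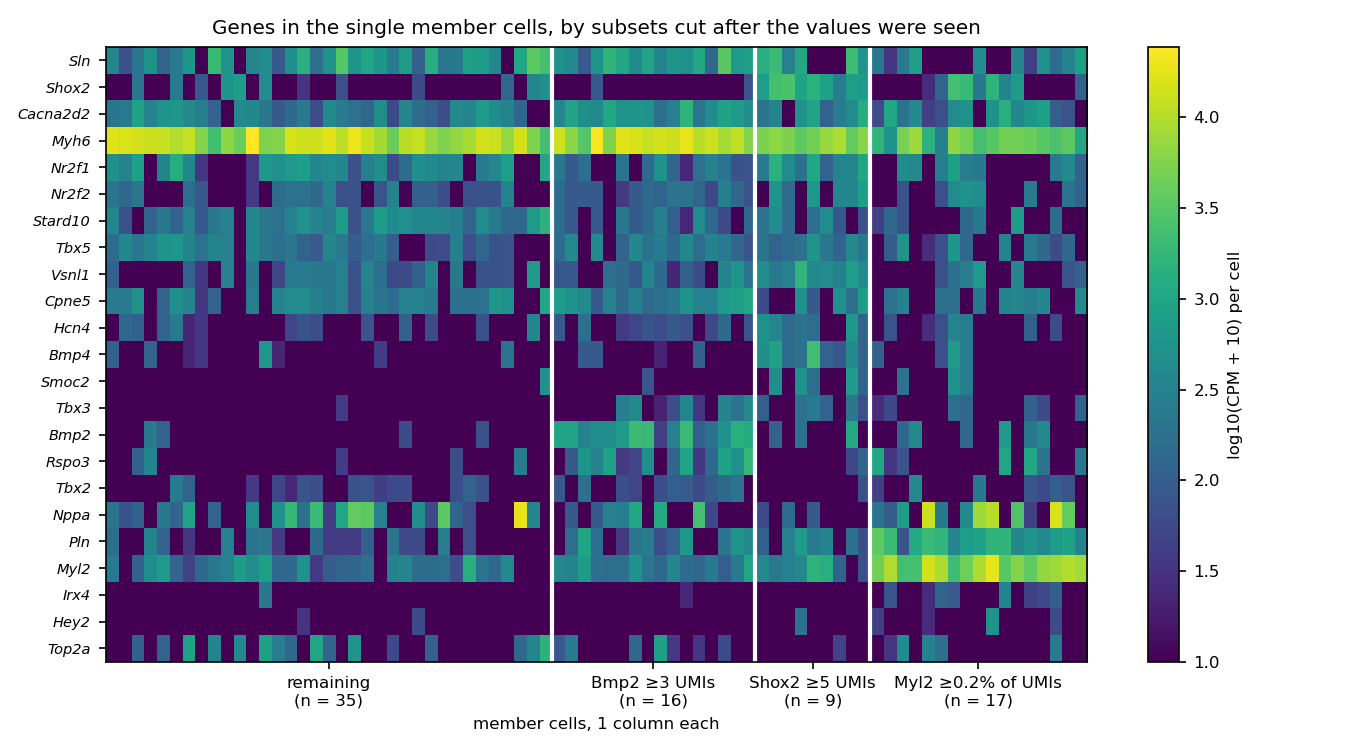
Level of 23 genes (rows, log10 of CPM + 10 by colour) in each of the 77 atrial/AV-like cells (columns), divided by white lines into the 4 subsets cut after the values were seen. Bmp2 and Rspo3 are bright in the second block, Shox2, Bmp4 and Hcn4 in the third, and Myl2 and Pln in the fourth. Tbx3 was detected in 9 of 16 cells of the second block and in 6 of 9 of the third.

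Pairs of genes were also counted over single cells. Of the 77 cells, Nr2f1 was detected in 59, Stard10 in 60, Bmp2 in 29 and Tbx3 in 23. Nr2f1 and Stard10 were detected together in 49 cells. Shox2 was detected in 32 cells and Bmp2 in 29, and both in 7. A planned test of cells with Shox2 against cells without it needed at least 10 cells of each kind in a library, which only het 2 had (11 and 27). A fit over all 4 libraries, added after the data were seen, called none of 1905 genes by edgeR, with 112 at an unadjusted p under 0.05.

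The share of cardiomyocytes that were atrial/AV-like was compared between genotypes. Het 1 had 0.398% and het 2 had 1.41%, with 95% Wilson intervals of 0.233 to 0.680% and 1.03 to 1.93%. KO 1 had 0.526% (0.337 to 0.821%), and KO 2 had 0.307% (0.149 to 0.632%). Mean shares were 0.904 ± 0.715% for het and 0.416 ± 0.155% for KO (SD, n = 2), a difference of -0.487 percentage points (exact permutation test, two-sided, p = 0.667, where 2 libraries against 2 cannot go below 0.333). Het 2 stood apart from the other 3 libraries in these shares, and without it the difference was 0.0181 points. Among barcodes with at least 2% mitochondrial UMIs the shares were 0.731, 3.50, 3.27 and 1.19%. There KO 1 lay beside het 2, and KO minus het was 0.117 points in place of -0.487. After thinning to 5000 UMIs, which left out 1647, 713, 1630 and 641 shallower barcodes, the shares were 0.371, 0.958, 0.657 and 0.122% of the remaining 1616, 1983, 1980 and 1642.

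**Figure D5:**
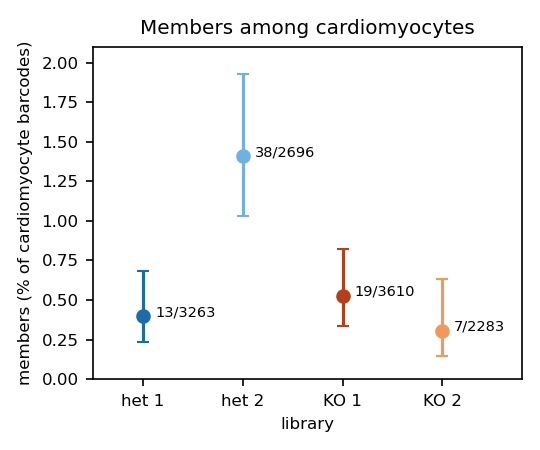
Atrial/AV-like cells as a share of cardiomyocyte barcodes (y axis, %) in each library (x axis), with 95% Wilson intervals and the counts beside each point. Het 2 lies at 1.41%, and the other 3 libraries lie between 0.307 and 0.526% with overlapping intervals.

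Gata4, the targeted gene, was present in the atrial/AV-like cells of all libraries. It stood at 141, 85.7, 91.3 and 60.5 CPM, from 22, 95, 27 and 14 UMIs, and at 64.9, 61.8, 61.6 and 59.3 CPM in other cardiomyocytes. The endothelial Cre does not aim at these cells, and where the counted reads lie relative to the floxed part is not given in the sources used here, so these levels check no label. KO against het, with KO 2 left out, the difference in Gata4 was -0.15 ± 0.42. With KO 2 included it was -0.43 ± 0.38 (edgeR adjusted p = 0.9994). Over all 4 libraries the Gata4 difference from other cardiomyocytes was 0.21 ± 0.20 (edgeR adjusted p = 0.499) and 0.15 ± 0.19 under the limit (adjusted p = 0.696).

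Genotype was compared within the atrial/AV-like cells with KO 2 left out, as planned for libraries under 10 cells, which left 2 libraries against 1 and assumed that the lone KO library varies like the het ones. Of 5468 genes, 22 were higher and 23 lower in KO (0.823%). With KO 2 included, a choice made after the data were seen, none of 4428 genes passed by edgeR (76 at an unadjusted p under 0.05), and DESeq2 without KO 2 called 1 in each direction. The counts thus rest on KO 1. On simulated data the fit without KO 2 recovered 71 of 200 genes changed 4-fold, so changes of that size can be missed.

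A few cells held many of the UMIs of the genes named for genotype. Mpped2, a metallophosphodiesterase gene, had 1, 8, 56 and 7 UMIs (6.40, 7.22, 189 and 30.2 CPM) against 109 to 130 CPM in other cardiomyocytes of all libraries, and 1 KO 1 cell held 29 of the 56. Fosb, an immediate early factor, had 13, 47, 94 and 0 UMIs, of which 1 KO 1 cell held 71. Atf3, a stress-induced factor, had 4, 56, 64 and 18, of which single cells held 32 in KO 1 and all 18 in KO 2. Pln had 79, 164, 336 and 124 UMIs, of which 1 KO 1 cell held 208.

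Lower in KO 1 were Nppa (132, 1323, 42 and 880 UMIs) and the mitotic genes Hmmr (1, 134, 0 and 39), Cdca8 (4, 165, 5 and 41) and Ube2c (19, 286, 12 and 85). In each of these 4 genes the het 2 and KO 2 libraries held more UMIs than het 1 and KO 1, so that the groups overlapped once KO 2 was counted. The embryonic globin genes Hbb-y and Hba-x, outside the naming rule, were also among the 23 lower genes (-1.39 ± 0.27 and -1.89 ± 0.38).

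Whether the KO difference in atrial/AV-like cells departed from that in other cardiomyocytes was tested as an interaction over all 4 libraries. It was higher in 7 of 14462 genes (0.0484%) and lower in none by edgeR (420 at an unadjusted p under 0.05 in either direction), and DESeq2 called none. Alcam, an adhesion molecule, had 8, 44, 50 and 30 UMIs (51.2, 39.7, 169 and 129.5 CPM) against 25.0 to 40.9 CPM in other cardiomyocytes, an interaction of 2.18 ± 0.44 (adjusted p = 0.0029), and both KO libraries were above both het libraries. Single cells held 28 of the 50 and 13 of the 30 UMIs, and the interaction lost its call when het 2 (1.69, adjusted p = 1) or KO 1 (2.03, adjusted p = 0.0628) was left out. Vsnl1 went the other way, at -1.94 ± 0.53 (adjusted p = 0.279), and did not pass.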

How the data were processed

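Single cells of mouse heart ventricle were measured by droplet RNA sequencing in 4 libraries. The deposited matrices held UMI counts per gene and barcode, as whole numbers, for 55405 genes; they came from Cell Ranger 6.0.1 per the file headers, and mm10 and Seurat are named in the submitters' processing notes. The labels conflict on the kit (3′ v2 or a Next GEM version). The annotation version is not given in the sources used here; 54349 of 55405 gene identifiers were found in GENCODE M21 (GRCm38).

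Barcodes were chosen as the report states. The members and the gene lists were chosen with earlier results of these data known. UMIs were summed per library and cell group, filtered (filterByExpr, minimum count 10, minimum total 15), scaled by TMM factors and tested by quasi-likelihood (edgeR 4.0.16, R 4.3.3), with library as a block within libraries and Benjamini-Hochberg adjustment at 0.05 over all genes tested. CPM are UMIs over the group's summed UMIs without TMM. Scrublet ran in scanpy 1.11.5 with an expected rate of 0.1; where its automatic threshold failed, the median of those that worked was used, and its calls were left out as an alternative only. Rule genes were left out of counts of calls.

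Genes were named by rule: against other cardiomyocytes the 8 per direction with the largest log2 difference that passed, at 20 CPM or more and in 1 direction in all 4 libraries, plus up to 4 of lowest p in each list; for genotype up to 4 per direction of lowest p whose libraries did not overlap, plus Gata4, EGFP and dsRed. Not eligible were ribosomal, mitochondrial and globin genes, Xist, Tsix, genes of the Y chromosome and those without a proper name. Alternatives were DESeq2 1.42.0, limma 3.58.1 (voom), RLE factors, no filter, leaving out each library, at least 5 marker UMIs, doublets or barcodes with other transcripts left out, matching by UMIs, thinning, and the mitochondrial limit. The fits were tested before use on simulated data with known changes and a fixed spread, which was not estimated from these cells. Against other cardiomyocytes 190 of 200 genes changed 4-fold were recovered (95%), and 30 of 200 changed 2-fold (15%). KO against het recovered 71 of 200 genes changed 4-fold (35.5%). Wilson intervals and floors are at the 95% level or 3 counts and cover counting error only.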

Additional observations from a re-analysis of the deposited data

Results flagged for a closer look

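In 7 genes the KO difference in atrial/AV-like cells departed from that in other cardiomyocytes by the interaction test (edgeR, adjusted over 14462 genes), and in most of them 1 cell held a large part of the UMIs. Mpped2 had the interaction of 3.83 ± 0.54 (log2 ± SE, adjusted p = 2.91e-08), with 1, 8, 56 and 7 UMIs (order: het 1, het 2, KO 1, KO 2), of which 1 KO 1 cell held 29; without KO 1 it was 2.09 and did not pass. Lyz2, a macrophage gene, had 4.39 ± 0.63 (adjusted p = 3.36e-08), and 1 KO 2 cell held 50 of 51 UMIs there. Alcam had 2.18 ± 0.44 (adjusted p = 0.0029) and was higher in both KO libraries than in both het libraries. Tnfrsf12a, a TNF family receptor, had 2.17 ± 0.47 (adjusted p = 0.0151), with 2, 32, 13 and 33 UMIs, of which 1 KO 2 cell held 17.

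Atf3 had an interaction of 1.91 ± 0.43 (adjusted p = 0.0285), and all 18 of its KO 2 UMIs were in 1 cell. Nppb, a natriuretic peptide, had 2.46 ± 0.56 (adjusted p = 0.0293), and 1 KO 2 cell held 58 of the 59 UMIs there. Cspg4, a proteoglycan of mural cells, had 3.15 ± 0.74 (adjusted p = 0.0452), with 2, 5, 4 and 13 UMIs, of which 1 KO 2 cell held 11. None of the 7 was called by DESeq2 or when other cardiomyocytes were matched by UMIs, where edgeR called 0 of 4995 genes (119 at an unadjusted p under 0.05).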

How the results depend on the processing

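Against other cardiomyocytes, 1302 genes were higher and 1807 lower. The higher count was 395 when matched by UMIs, 651 with at least 2% mitochondrial UMIs, 211 with both, and 866 to 1042 with each library left out. The lower count was 330, 780, 147 and 1190 to 1484 in the same order, and 1072 by DESeq2. Against trabecular-type cells the counts were 305 to 669 higher and 262 to 598 lower with each library left out, and 411 lower by DESeq2; against compact-type cells they were 774 to 1011 higher and 720 to 1031 lower, and 645 lower with the mitochondrial limit. The matched fits tested fewer genes. The mitochondrial limit, alone or with the match, and KO 2's inclusion were chosen after seeing the data.

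KO against het gave 22 higher and 23 lower. The higher count was 1 by DESeq2, 14 with no filter, 13 with at least 5 marker UMIs and 1 without barcodes carrying other types' transcripts. The lower count was 1 by DESeq2, 3 by limma-voom and 5 without those barcodes. With KO 2 included both were 0, and with the replicate block as well both were 0 (154 genes at an unadjusted p under 0.05 by edgeR). The titles give both genotypes numbers 1 and 2; same-numbered libraries' deviations correlated at 0.209 in atrial/AV-like cells and 0.328 in other cardiomyocytes, and 2 pairs do not establish a pairing. Leaving out a library was not run there, since no residual degrees of freedom remain. The interaction called 0 by DESeq2 and when matched by UMIs, and 5 to 13 higher and 2 to 4 lower with each library left out. The share difference was -0.993 to 0.0181 percentage points with each library left out, and turned from -0.487 to 0.117 with the mitochondrial limit.

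Signs reversed for EGFP against other cardiomyocytes (0.43 without barcodes carrying other types' transcripts, 0.13 matched by UMIs, -0.35 to 0.000706 with each library left out) and against trabecular-type cells (-0.28 to 0.00237), none past the threshold. They also reversed for Gata4 (-0.11 without those barcodes), Nppa against other cardiomyocytes (1.19 matched, 1.0 matched with the limit), Nppa KO against het (0.97 with KO 2) and Hmmr (0.42 with KO 2 and the replicate block). Beyond what the fits' construction shows, the cause was not tested. KO against het rests on 156240 to 1107996 summed UMIs a library.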

Other observations

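Secreted ligands of the myocardium moved in both directions. Against other cardiomyocytes 10 of 27 rose and 6 fell, where 9.95% of all genes rose and 13.8% fell. Among barcodes with at least 2% mitochondrial UMIs 9 rose and 6 fell, where 5.37% and 6.44% of all genes did. Besides Bmp2, Bmp4 and Rspo3, the risers in both comparisons were Slit3, Bmp5, Wnt2, Adm, Dkk3 and Nrg2, and the fallers were Nppa, Nppb, Bmp10, Slit2, Cxcl12 and Vegfb. Slit3, an axon and vessel guidance ligand, stood at 44.8, 62.3, 54.1 and 21.6 CPM (order: het 1, het 2, KO 1, KO 2) against 1.24 to 1.97 CPM, a log2 difference of 4.50 ± 0.38, and of 3.995 ± 0.36 with the limit.

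Trabecular genes did not all move one way. Gja5, the connexin of trabeculae and atria, stood at 0, 92.1, 40.6 and 56.1 CPM against 14.7 to 25.6 CPM in other cardiomyocytes and 47.5 to 104 CPM in trabecular-type cells. It rose by 1.06 ± 0.25 against other cardiomyocytes. It did not pass with the mitochondrial limit, at 0.48 ± 0.30 (edgeR adjusted p = 0.361), or without het 2, at 0.40 (adjusted p = 0.531). Irx3, a homeobox factor, stood at 11.2 ± 9.82 CPM (SD, n = 4) against 23.6 ± 4.07 CPM, with a difference of -1.98 ± 0.40, and of -1.60 ± 0.46 with the limit. Its fall did not pass without het 2 (-1.04, adjusted p = 0.0973). Nppb stood at 72.2 ± 122 CPM against 122 ± 49.7 CPM, and 1 KO 2 cell held 58 of the 59 UMIs of its library.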
